A study of Mus musculus with 11 samples.

Results

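The expression of 24197 gene rows was compared between 4T1 cells given interferon β (IFNβ) and 4T1 cells given vehicle. 4T1 is a mouse mammary carcinoma line. All 24197 rows of the cultured-cell table were taken, in the 5 of its 11 libraries that belong to these groups. The 3 IFNβ libraries came from cells given recombinant mouse IFNβ1 at 250 U/mL for 4 h, washed, put into fresh medium and, by their sample labels and the study's methods, collected 2 h later. The protocol text shared by all samples gives 68 h in place of 2 h. The 2 vehicle control libraries came from cells collected at 72 h, and the IFNβ labels add that their collection was timed to these controls. The other 6 libraries, read here only beside these, came from cells given 5 uM 4HC, a hydroperoxide that releases activated cyclophosphamide, for 4 h and collected at 72 h. For 3 of those the medium also held 10 ug/mL of an antibody to IFNAR1, a subunit of the type I interferon receptor. Per the labels RNA was taken from 1 well per sample, and all samples are of 1 cell line. By the study's methods the cells of its IFNβ experiments were plated more densely than those of its 4HC experiments, and they received new medium shortly before collection. The IFNβ cells were incubated overnight before treatment, while cells of the 4HC experiments were kept to 72 h. Time in culture may thus have differed too, although the labels time the collections together. The density at collection is not given. The effect of IFNβ and those of plating density, medium change and time in culture therefore cannot be told apart in this comparison.

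The libraries held 34.7 to 49.3 M reads with IFNβ and 33.7 to 35.8 M reads in control (M, the mega prefix), as recovered from the steps that a single read leaves in FPKM, fragments per kilobase of transcript per M reads. The table gives 1 mean FPKM per group and no value for a library, so no spread between libraries can be given and no test was run for any gene. Differences are described by size alone. Several epithelial markers were expressed in both groups, while others, such as Krt5 and Pgr, were close to absent in both. Krt7, Krt8 and Krt18, keratins of simple epithelium, stood at 160, 91.1 and 101 FPKM with IFNβ and 83.1, 52.3 and 88.1 FPKM in control, and the adhesion protein Epcam at 15.2 FPKM with IFNβ and 19.3 FPKM in control. Of 23 leukocyte markers 2 were over 1 FPKM, Cd68 (1.27 FPKM with IFNβ, 2.52 in control) and Cd14 (1.83 and 1.18 FPKM), and the pan-leukocyte marker Ptprc was listed at 0 in both groups. None of 18 fibroblast and endothelial markers was over 1 FPKM in either group.

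Type I interferons bind a receptor made of IFNAR1 and IFNAR2, which activates the kinases JAK1 and TYK2. These phosphorylate STAT proteins, STAT2 among them, which join IRF9 to form the complex ISGF3 and bind the interferon-stimulated response element (ISRE) near the start of interferon-stimulated genes (ISGs). The products of ISGs detect viral nucleic acid, block viral translation and assembly, load antigen onto MHC class I and attract T cells. A part of them, USP18 and SOCS1 among them, damps the receptor again.

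The ISRE core is written here as GAAANNGAA and was searched for on both strands in the 250 bases before each gene start in RefSeq promoters (mouse build GRCm38.p6). The promoters below are those of the 4 largest differences upward whose promoter held a match, each of a gene over 90-fold higher with IFNβ. Of the 15 largest upward differences among genes that reached 5 FPKM, 7 held a match. Another 3, Cmpk2, Irf7 and Ifi44, held none, and 5, Usp18 and Mx2 among them, had no promoter in the set searched. Bases are 5′ to 3′ on the gene's strand, and capitals mark matches to GAAANNGAA or its reverse complement.
Ifit1, chr19:34640775-34640843, plus strand: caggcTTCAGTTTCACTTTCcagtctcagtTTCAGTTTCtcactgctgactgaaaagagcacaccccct
I830012O16Rik, chr19:34607793-34607861, plus strand: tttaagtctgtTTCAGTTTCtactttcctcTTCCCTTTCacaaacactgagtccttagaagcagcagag
Ifit3, chr19:34583397-34583465, plus strand: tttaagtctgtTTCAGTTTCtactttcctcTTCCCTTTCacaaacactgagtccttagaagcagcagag
Rsad2, chr12:26456533-26456601, minus strand: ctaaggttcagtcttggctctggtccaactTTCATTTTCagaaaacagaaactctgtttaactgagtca

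Ifit1 carried 3 matches, of which a pair overlaps by shared letters, and the nearest ended 76 bases before the start. I830012O16Rik, a gene of the same family, and Ifit3 held the same letters at all 69 positions shown, so reads of these near-identical copies may have been split or shared by the counting and their separate levels are uncertain.

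Counting as called higher or lower a gene whose mean FPKM + 0.1 differed by more than 2-fold, with over 1 FPKM in the higher group, 771 genes were called higher with IFNβ and 377 lower. These were 7.52% and 3.68% of the 10257 genes over 1 FPKM, or 3.19% and 1.56% of all rows. Genes called higher held 7.24% of all FPKM with IFNβ and 1.82% in control, and genes called lower held 1.35% with IFNβ and 3.65% in control. The upward differences reached much further than the downward ones. Among the genes called higher, 189 differed by over 4-fold, 95 by over 8-fold and 48 by over 16-fold, against 37, 5 and 0 among the genes called lower. The median log2 ratio over all genes above 1 FPKM in both groups was 0.02. The limit of 2-fold fell inside a dense range of values. A further 241 genes were 1.8- to 2-fold higher and 185 were 1.8- to 2-fold lower, and 185 of the higher and 107 of the lower calls lay between 2- and 2.2-fold. All folds below are ratios of FPKM + 0.1, which understates the difference of genes with low control values.

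**Figure D1:**
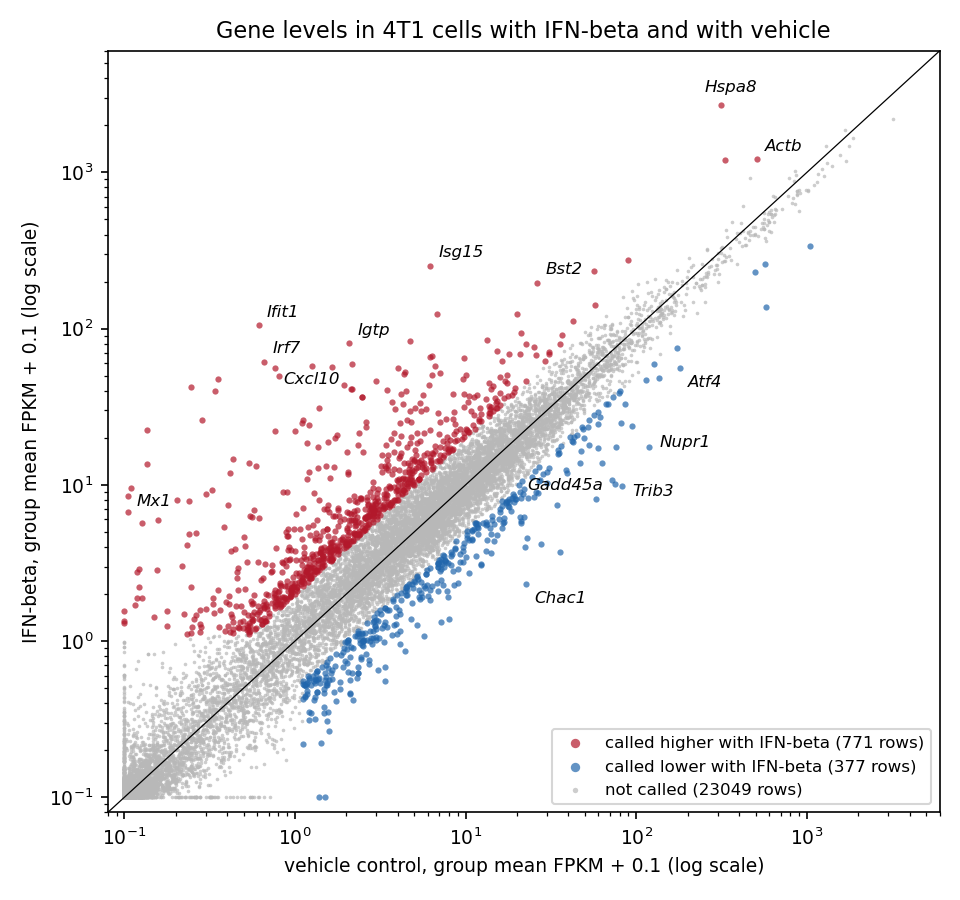
Mean FPKM + 0.1 with IFNβ (vertical) against vehicle control (horizontal) on log axes, 1 point per gene row, with the 771 rows called higher in red, the 377 called lower in blue and the rest in grey. The red points spread far above the line of equal levels while the blue points stay close below it.

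The largest upward difference among genes that reached 5 FPKM was that of Cmpk2, a mitochondrial nucleotide kinase next to Rsad2, with 42.4 FPKM with IFNβ and 0.147 FPKM in control (172-fold). Ifit1, which binds viral RNA lacking cap methylation, had 105 FPKM with IFNβ and 0.512 FPKM in control (171-fold). Usp18, which removes ISG15 from proteins and blocks the receptor, had 47.8 FPKM with IFNβ and 0.253 FPKM in control (136-fold). Each of these genes was close to silent in control and among the moderately to highly expressed genes with IFNβ. In mm9, the build of the files, the genes span chr12:27154079-27164702 (Cmpk2), chr19:34715378-34724499 (Ifit1) and chr6:121195923-121220935 (Usp18), exons and introns included.

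The next in size were again antiviral genes. Ifit3 had 40.04 FPKM with IFNβ and 0.239 FPKM in control (118-fold), and Irf7, the factor that amplifies interferon production, had 61.4 FPKM with IFNβ and 0.560 FPKM in control (93.2-fold). Rsad2, which encodes viperin, an enzyme that makes a chain-terminating nucleotide, had 25.8 FPKM with IFNβ and 0.184 FPKM in control (91.2-fold). Cxcl10, a chemokine that draws T cells through CXCR3, had 56.1 FPKM with IFNβ and 0.667 FPKM in control (73.3-fold). The 15 largest also held I830012O16Rik, Mx2, Iigp1, Gm12250, Mx1, Ifi44, Gbp3 and Cxcl11, at 44.8- to 164-fold.

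For the lowest control levels the size of the fold rests on a handful of reads. Whole reads could be recovered for 20 of the 25 called genes with few reads in the lower group, and 12 of these had under 10 reads in the pooled control libraries. Mx1, a dynamin-like GTPase that traps influenza virus nucleocapsids, had 6.62 FPKM with IFNβ and 0.00499 FPKM, or 1 read, in control. Its ratio of reads per depth was 1368, with a 95% exact interval of 245 to 54054. Iigp1, a GTPase that attacks parasite vacuoles, had 2 control reads and a ratio of 1023 (283 to 8453). Mx2 and Cxcl11 had 6 control reads each, with ratios of 377 (173 to 1028) and 208 (95.4 to 568). These intervals cover counting error only, and their lower ends are all far above the limit of 2-fold.

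**Figure D2:**
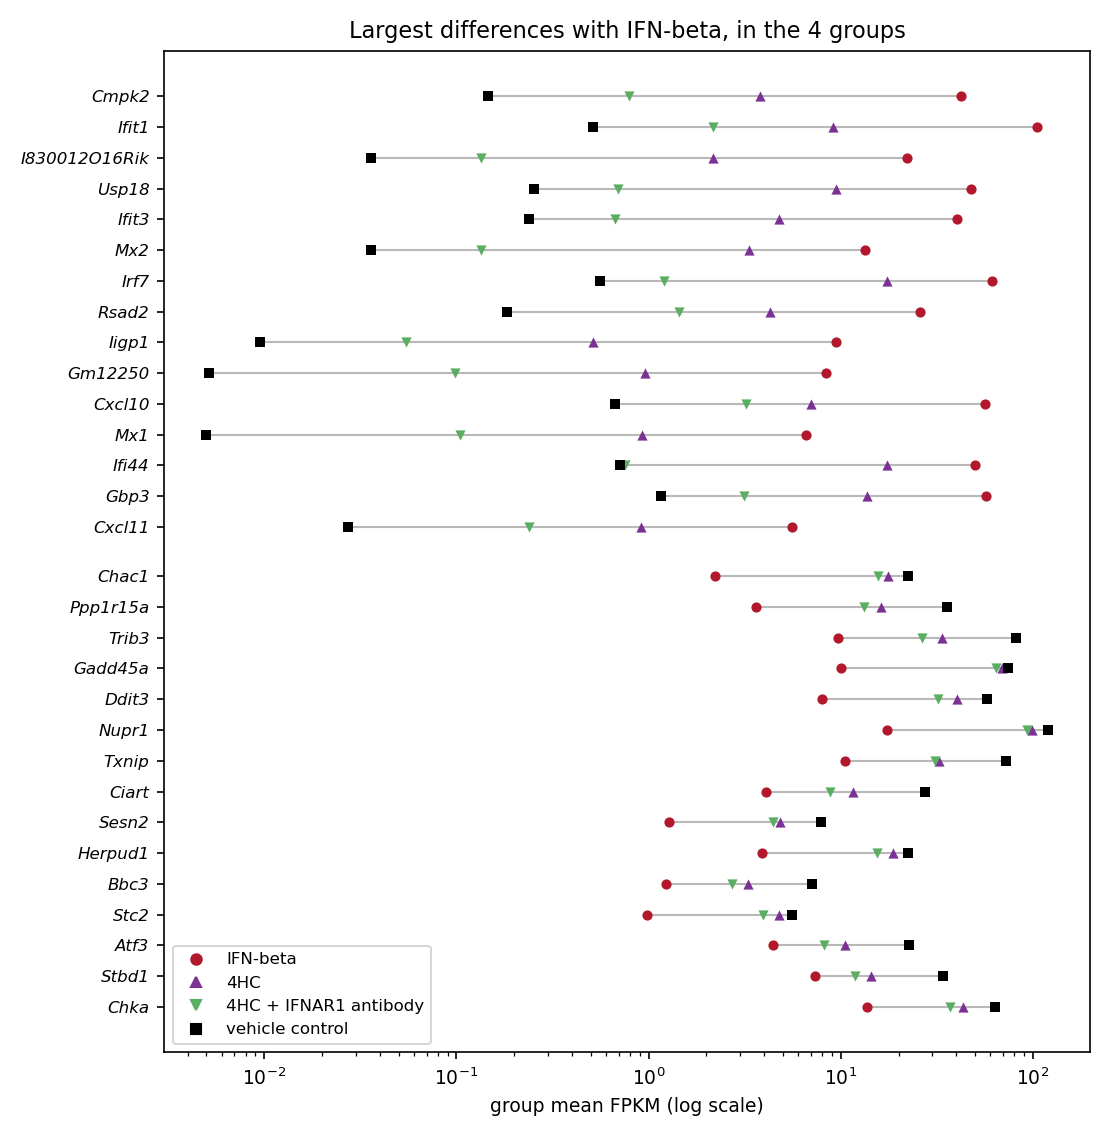
Group mean FPKM on a log axis for the 15 largest upward (top) and 15 largest downward differences between IFNβ and control among called genes that reached 5 FPKM. Red circles are IFNβ, purple triangles 4HC, green triangles 4HC with IFNAR1 antibody and black squares vehicle control. Upward, 4HC lies between IFNβ and control in every gene drawn. Downward, IFNβ is the lowest of the 4 groups in every gene drawn.

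The receptor and its kinases differed little, and the transcription factors downstream of them included the genes called. Ifnar1 had 3.89 FPKM with IFNβ and 4.46 FPKM in control, Ifnar2 had 6.00 and 7.12 FPKM, Jak1 14.0 and 11.2 FPKM, and Tyk2 2.16 and 1.96 FPKM, none past 2-fold. Of 17 genes of the receptor and JAK-STAT-IRF core 4 were called higher, and Irf7, Stat2 and Irf9 among them act at the ISRE. Stat2 had 17.3 FPKM with IFNβ and 1.26 FPKM in control (12.7-fold) and Irf9 18.5 FPKM with IFNβ and 3.92 FPKM in control (4.64-fold). Several factors of the list stayed within 2-fold. Irf1 had 25.9 FPKM with IFNβ and 16.02 FPKM in control, Irf2 12.3 and 9.27 FPKM, Irf3 5.39 and 3.72 FPKM, Stat3 7.54 and 5.37 FPKM, and Irf8, a factor of myeloid cells, 0.310 and 0.435 FPKM. The interferon γ receptor genes Ifngr1 (7.81 and 9.68 FPKM) and Ifngr2 (10.2 and 11.1 FPKM) and the interferon λ receptor genes Ifnlr1 (0.967 and 1.67 FPKM) and Il10rb (4.06 and 4.54 FPKM) also stayed within 2-fold.

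Of 15 feedback inhibitors 3 were called higher: Usp18, Socs1, whose product inhibits JAK kinases, and Dusp1, a phosphatase of MAP kinases. Socs1 had 6.03 FPKM with IFNβ and 0.515 FPKM in control (9.96-fold), while the related Socs3 had 1.85 and 2.07 FPKM. None of 21 ligand genes was over 1 FPKM in either group, and Ifnb1 itself was listed at 0 with IFNβ, with 4HC, with 4HC and antibody, and in control.

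ISG15 is a ubiquitin-like protein joined to newly made proteins, and 6 of the 7 genes of its pathway were called higher. Isg15 had the highest level among them, 252 FPKM with IFNβ and 6.07 FPKM in control (40.9-fold, chr4:155573532-155574927 in mm9). Each step of the conjugation cascade was higher as well. The E1 enzyme gene Uba7 had 8.92 FPKM with IFNβ and 0.753 FPKM in control (10.6-fold), the E2 gene Ube2l6 36.2 and 2.36 FPKM (14.8-fold) and the E3 gene Herc6 12.8 and 1.26 FPKM (9.43-fold).

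The families that bind or cut viral RNA differed in nearly all of their expressed members. In the group of OAS enzymes and other effectors that bind double-stranded or Z-form nucleic acid, 11 of 16 genes were called higher and the median log2 ratio over all 16 was 2.98. Oas3, an OAS enzyme that makes an antiviral signal on sensing double-stranded RNA, had 14.6 FPKM with IFNβ and 0.332 FPKM in control (34.0-fold). Eif2ak2, which encodes the kinase PKR that halts translation, had 37.7 FPKM with IFNβ and 5.54 FPKM in control (6.69-fold). Zbp1, a sensor of Z-form nucleic acid that can start necroptosis, had 9.13 FPKM with IFNβ and 0.228 FPKM in control (28.1-fold), and Mlkl, the executor of necroptosis, had 47.5 and 9.58 FPKM (4.92-fold).

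In the IFIT, IFITM and IFI27 family 9 of 20 genes were called higher. Ifitm3, which blocks virus fusion in endosomes, had 232 FPKM with IFNβ and 56.3 FPKM in control (4.11-fold), whereas its neighbour Ifitm2 had 64.7 and 48.8 FPKM. Ifi27, an ISG in many tissues, had 33.1 FPKM with IFNβ and 32.2 FPKM in control. Among 31 Mx proteins and other restriction factors 22 were called higher, with a median log2 ratio of 2.38 over all 31. Bst2, which tethers budding virus to the cell surface, had 196 FPKM with IFNβ and 26.1 FPKM in control (7.48-fold), while the scramblase gene Plscr1 had 17.8 and 17.7 FPKM.

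Several nucleic acid sensors upstream of interferon production were called higher, and the adaptors they signal through were not. Ifih1 and Ddx58, the RNA sensors MDA5 and RIG-I, had 8.80 and 29.5 FPKM with IFNβ and 1.19 and 5.35 FPKM in control (6.87- and 5.44-fold). Tlr3, an endosomal sensor of double-stranded RNA, had 34.0 FPKM with IFNβ and 3.58 FPKM in control (9.26-fold). Dhx58, which encodes their relative LGP2, had 22.1 FPKM with IFNβ and 0.663 FPKM in control (29.1-fold). The adaptor genes Mavs (7.54 FPKM with IFNβ, 5.92 in control) and Tmem173, which encodes STING (6.29 and 4.15 FPKM), were not called. In all, 5 of 25 sensing genes were called higher, the fifth being Tlr2, a receptor of bacterial lipoproteins. The AIM2-like p200 family, sensors of DNA in mouse, had 5 of 11 called higher, and Ifi202b and Ifi204 led by level with 84.4 and 51.6 FPKM with IFNβ and 13.2 and 6.996 FPKM in control.

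**Figure D3:**
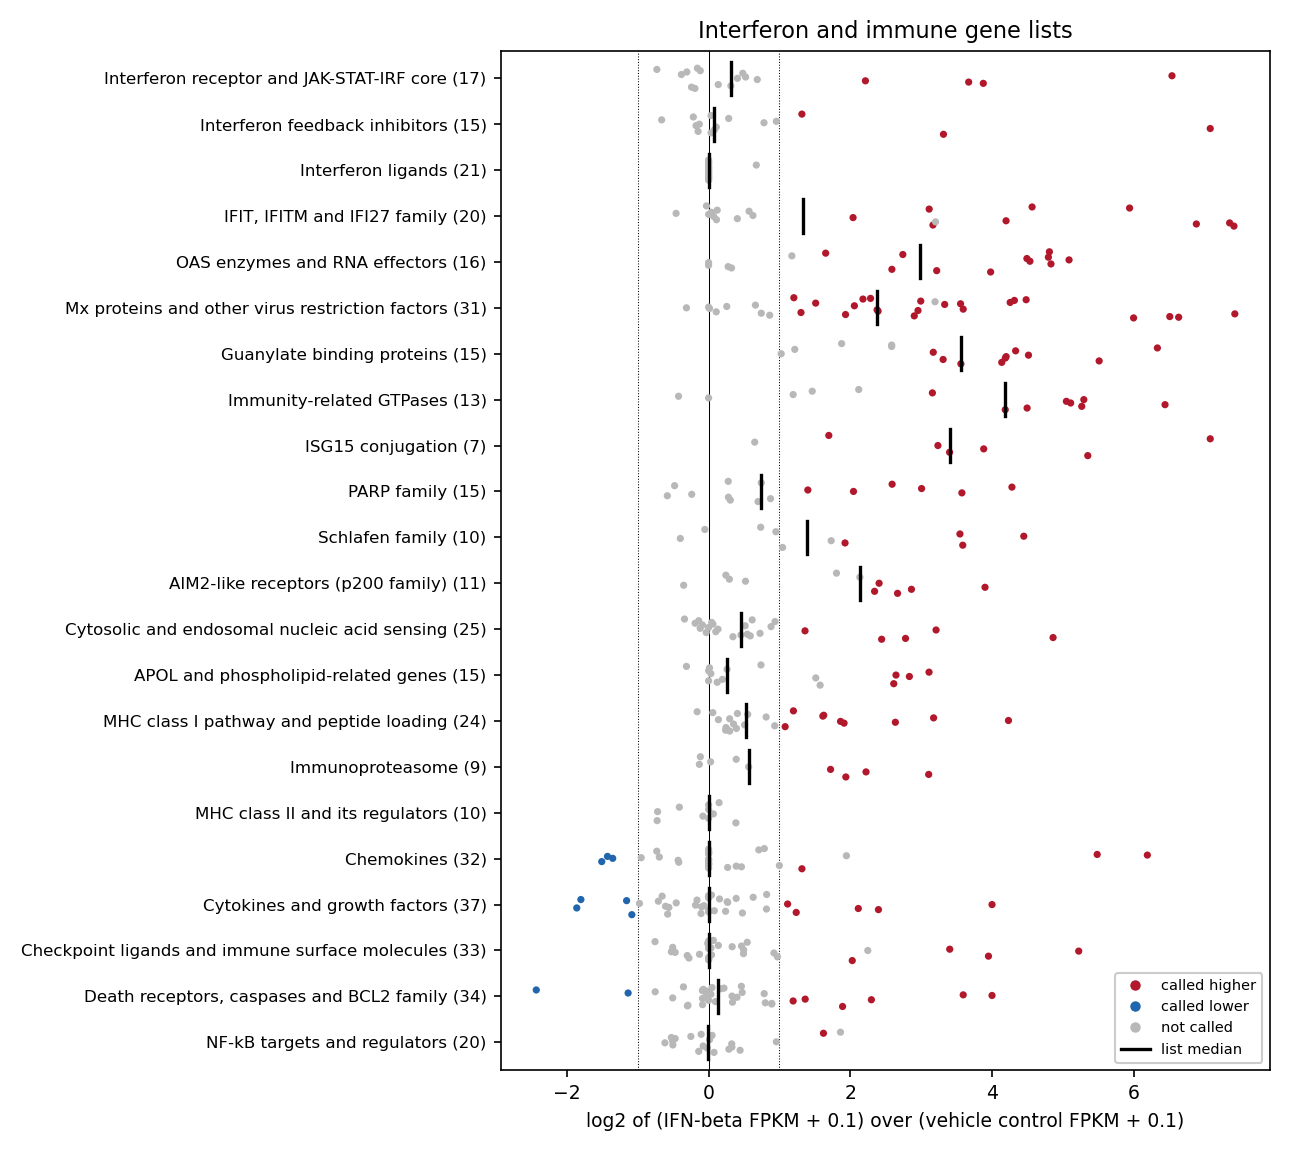
Log2 ratio of mean FPKM + 0.1, IFNβ over vehicle control, for the members of 22 interferon and immune gene lists, with the number of rows in brackets. Red points were called higher, blue lower and grey not called, black bars are list medians, and dotted lines mark 2-fold. Medians run up to 4.19 for the immunity-related GTPases and lie at 0 for interferon ligands, MHC class II and chemokines.

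The interferon-inducible GTPases, which coat and break the vacuoles of intracellular parasites and bacteria in mouse cells, had the highest medians of the interferon families over all rows. Over members above 1 FPKM the order was immunity-related GTPases (5.05), the OAS group (4.49) and guanylate binding proteins (4.20). In the list of guanylate binding proteins all 10 rows over 1 FPKM were called higher, of 15 in all with a median log2 ratio of 3.56, and the list summed to 275 FPKM with IFNβ and 15.1 FPKM in control. Gbp2, a member that coats Toxoplasma vacuoles, had 82.9 FPKM with IFNβ and 4.61 FPKM in control (17.6-fold). The list also counts Gm12250 (8.40 FPKM with IFNβ, 0.00517 in control), a gene known as Irgb10 that belongs to the immunity-related GTPases, in the 10, the 15 and the sum. The rows of Gvin1 and Gm4070, neither of them called, both rounded to 0.730 FPKM with IFNβ and 0.0384 FPKM in control, so the 15 may include a copy. Of 13 immunity-related GTPases 8 were called higher, with a median log2 ratio of 4.19 over all 13. Irgm1, a regulator of the family, had 124 FPKM with IFNβ and 6.70 FPKM in control (18.2-fold), and Igtp had 80.2 and 1.98 FPKM (38.6-fold). Tgtp1 and Tgtp2, near-identical neighbours with 7.83 and 7.87 FPKM with IFNβ and 0.139 and 0.103 FPKM in control, are uncertain one by one.

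Smaller families followed the same direction. Of 15 genes in the PARP list 6 were called higher, led by Parp14 (41.2 FPKM with IFNβ, 2.02 in control), Parp9 (52.5 and 4.31) and Parp12 (50.6 and 6.21), all mono-ADP-ribosylation genes known as ISGs. The 15 and the 6 both include Dtx3l (24.8 FPKM with IFNβ, 4.03 in control), which is not a PARP gene. The 4 Schlafen genes over 1 FPKM, of 10, were all called higher, with Slfn8 at 21.8 FPKM with IFNβ and 0.904 FPKM in control (21.9-fold). Of 15 APOL and phospholipid-related genes 4 were called higher, among them Apol9a (43.7 and 6.03 FPKM, 7.14-fold). The TRIM ubiquitin ligases, a family counted after values were seen, had 12 of 67 rows called higher and 1 lower, with 32 over 1 FPKM, and Trim30a had 8.66 FPKM with IFNβ and 0.1995 FPKM in control.

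The classical class I heavy chains differed little, while genes of peptide loading and non-classical heavy chains were called higher. H2-D1 had 151 FPKM with IFNβ and 128 FPKM in control, H2-L 178 and 149 FPKM, H2-K1 2.80 and 2.26 FPKM, and the light chain gene B2m 320 and 261 FPKM, none past 2-fold. The span of H2-L lies inside that of H2-D1 in mm9, so the values of H2-D1 and H2-L are not independent. Tap1, a subunit of the peptide pump of the endoplasmic reticulum, had 37.8 FPKM with IFNβ and 4.09 FPKM in control (9.04-fold). Tapbp, whose product tapasin bridges the pump and class I, had 76.5 and 24.9 FPKM (3.06-fold). Nlrc5, the transactivator of class I genes, had 6.45 FPKM with IFNβ and 2.75 FPKM in control (2.29-fold). Of the non-classical genes H2-T24 differed most of the list, with 4.85 FPKM with IFNβ and 0.163 FPKM in control (18.8-fold). H2-T22 had 31.1 and 4.92 FPKM (6.22-fold), H2-T23 22.4 and 6.10 FPKM (3.64-fold) and H2-T10 3.66 and 0.898 FPKM (3.77-fold). In all, 9 of 24 class I pathway genes were called higher, and class I genes resemble each other enough that reads may have been split between copies.

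The catalytic subunits that turn the proteasome into the immunoproteasome were all called higher. Psmb8 had 68.8 FPKM with IFNβ and 17.9 FPKM in control (3.83-fold), Psmb9 13.0 and 1.42 FPKM (8.62-fold) and Psmb10 71.2 and 15.2 FPKM (4.67-fold). The constitutive subunit that Psmb8 replaces, Psmb5, had 67.9 FPKM with IFNβ and 66.6 FPKM in control. None of 10 MHC class II genes was called, and Cd74, the class II invariant chain gene, had 11.1 FPKM with IFNβ and 18.4 FPKM in control.

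Chemokines were called in both directions. Cxcl10 and Cxcl11, ligands of CXCR3, and the monocyte attractant Ccl2 (2.14 FPKM with IFNβ, 0.797 in control) made up the 3 of 32 chemokines called higher. The 3 called lower attract neutrophils or CCR6-bearing cells. Cxcl1 had 3.52 FPKM with IFNβ and 9.15 FPKM in control (2.56-fold lower), Cxcl5 1.93 and 5.36 FPKM (2.69-fold lower) and Ccl20 0.375 and 1.25 FPKM (2.85-fold lower). Ccl5, a T cell attractant known as an ISG, had 2.91 FPKM with IFNβ and 2.08 FPKM in control.

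The cytokines and growth factors also went both ways, with 5 of 37 called higher and 4 lower. The cytokines higher with IFNβ included the lymphocyte growth factor gene Il15 (5.11 FPKM with IFNβ, 0.888 in control, 5.27-fold), Tnfsf10, which encodes the death ligand TRAIL (1.79 and 0.0179 FPKM), and Il18bp, a decoy for interleukin 18 (5.44 and 1.18 FPKM, 4.33-fold). Tnfsf10 had 6 reads in control and a ratio of 102 with an exact interval of 46.8 to 279. Those called lower were Il23a, Vegfa, Csf3 and Il1a. Il23a, a subunit of interleukin 23, had 5.75 FPKM with IFNβ and 21.1 FPKM in control (3.63-fold lower), and the angiogenic factor gene Vegfa had 3.67 and 13.1 FPKM (3.49-fold lower).

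Among 33 checkpoint ligands and immune surface molecules 4 were called higher. Cd274, which encodes the T cell inhibitor PD-L1, had 4.39 FPKM with IFNβ and 1.00 FPKM in control (4.08-fold). Lgals9, a galectin that binds TIM-3, had 46.3 and 2.90 FPKM (15.5-fold), Ly6e 66.9 and 6.23 FPKM (10.6-fold) and Ly6a 5.83 and 0.0584 FPKM (37.4-fold). Cd47, the signal that restrains macrophages, was not called (22.5 FPKM with IFNβ, 27.8 in control), nor was Cd276 (12.1 and 14.7 FPKM). Of 34 death receptor, caspase and BCL2 family genes 6 were called higher and 2 lower. Xaf1, a pro-apoptotic ISG, had 18.6 FPKM with IFNβ and 1.45 FPKM in control (12.1-fold), Casp1, the inflammatory caspase, had 3.20 and 0.791 FPKM (3.71-fold), and the lower genes were Bbc3 and Bcl2. NF-kB genes were near level, with 1 of 20 called, Ptgs2 (49.0 and 15.9 FPKM), and Nfkbia at 34.6 FPKM with IFNβ and 32.8 FPKM in control.

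The downward side was led by genes of the integrated stress response, in which the factor ATF4 raises genes of amino acid supply, redox balance and cell death when translation initiation is restrained. Of 24 genes listed for this response, both regulators and targets, 15 were called lower and none higher, with a median log2 ratio of -1.71. The list summed to 245 FPKM with IFNβ and 813 FPKM in control. The 24 and the sums include the collagen receptor gene Ddr2 (6.90 FPKM with IFNβ, 13.2 in control, not called), which is not a regulator of this response. Chac1, which degrades glutathione, had 2.203 FPKM with IFNβ and 22.3 FPKM in control (9.75-fold lower). Ppp1r15a, the phosphatase subunit that ends the response, had 3.64 and 35.6 FPKM (9.55-fold lower), and the pseudokinase gene Trib3 9.73 and 81.9 FPKM (8.34-fold lower). Atf4 itself had 55.8 FPKM with IFNβ and 179.1 FPKM in control (3.21-fold lower).

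Further members gave the same picture over a wide range of levels. Ddit3, which encodes CHOP, had 7.96 FPKM with IFNβ and 57.7 FPKM in control (7.17-fold lower), the stress protein gene Nupr1 17.4 and 119 FPKM (6.82-fold lower), Atf3 4.45 and 22.7 FPKM (5.01-fold lower), and Sesn2, an inhibitor of mTORC1, 1.28 and 7.86 FPKM (5.78-fold lower). Asns, the asparagine synthetase gene, was not called, with 60.96 FPKM with IFNβ and 101 FPKM in control. Of 18 amino acid synthesis genes 6 were called lower, among them Got1 (12.3 and 38.6 FPKM) and Gpt2 (4.71 and 14.0 FPKM), both transaminases. Of 14 amino acid transporter genes 5 were called lower, including Slc6a9 (3.56 and 14.0 FPKM), Slc1a4 (2.63 and 10.4 FPKM) and Slc7a1 (8.16 and 23.2 FPKM). The cytosolic tRNA synthetases had 2 of 20 called lower and a median log2 ratio of -0.55.

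The endoplasmic reticulum chaperone genes and the p53 targets differed less as lists. Of 20 endoplasmic reticulum chaperone genes 3 were called lower, with a median of -0.01, and Hspa5, the chaperone BiP, had 362 FPKM with IFNβ and 577 FPKM in control. Herpud1, a degradation factor of the endoplasmic reticulum, was the largest of these at 3.87 and 22.3 FPKM (5.63-fold lower). Of 30 p53 targets 6 were called lower and 1 higher, with a median of -0.04. Gadd45a (10.1 FPKM with IFNβ, 74.5 in control, 7.35-fold lower) and Sesn2 also respond to ATF4, while Cdkn1a, the best known p53 target, had 1.20 and 1.65 FPKM. Trp53 itself had 22.5 FPKM with IFNβ and 48.5 FPKM in control (2.15-fold lower).

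Clock genes form a feedback loop in which CLOCK and BMAL1 bind E-boxes and drive their own repressors, and 9 of 19 were called lower and none higher, with a median log2 ratio of -1.24. Ciart, a repressor of CLOCK and BMAL1, had 4.07 FPKM with IFNβ and 27.5 FPKM in control (6.62-fold lower), and Per2 0.253 and 1.46 FPKM (4.41-fold lower). Nr1d1, which encodes the repressor REV-ERBα, had 1.29 and 4.69 FPKM (3.46-fold lower). Arntl, which encodes BMAL1 and is itself repressed by REV-ERBα, was lower too (0.945 FPKM with IFNβ, 3.00 in control, 2.97-fold), and Clock was not called (4.76 and 4.23 FPKM). The median was -0.70 with a pseudocount of 1 FPKM. By their labels the IFNβ cells were collected in step with the 72 h controls. The parts of the recent medium change and of time in culture in the clock genes were not tested.

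Txnip, which holds back glucose uptake and reports glucose through MondoA, had 10.6 FPKM with IFNβ and 72.1 FPKM in control (6.78-fold lower). Vegfa and Ndrg1, both hypoxia genes, had 3.67 and 17.02 FPKM with IFNβ and 13.1 and 59.5 FPKM in control, and they were the only 2 of 30 hypoxia and glycolysis genes called. Gapdh had 708 FPKM with IFNβ and 634 FPKM in control. Of 30 lysosome and autophagy genes 2 were called lower, among them the autophagy receptor gene Sqstm1 (230 and 495 FPKM, 2.16-fold lower).

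**Figure D4:**
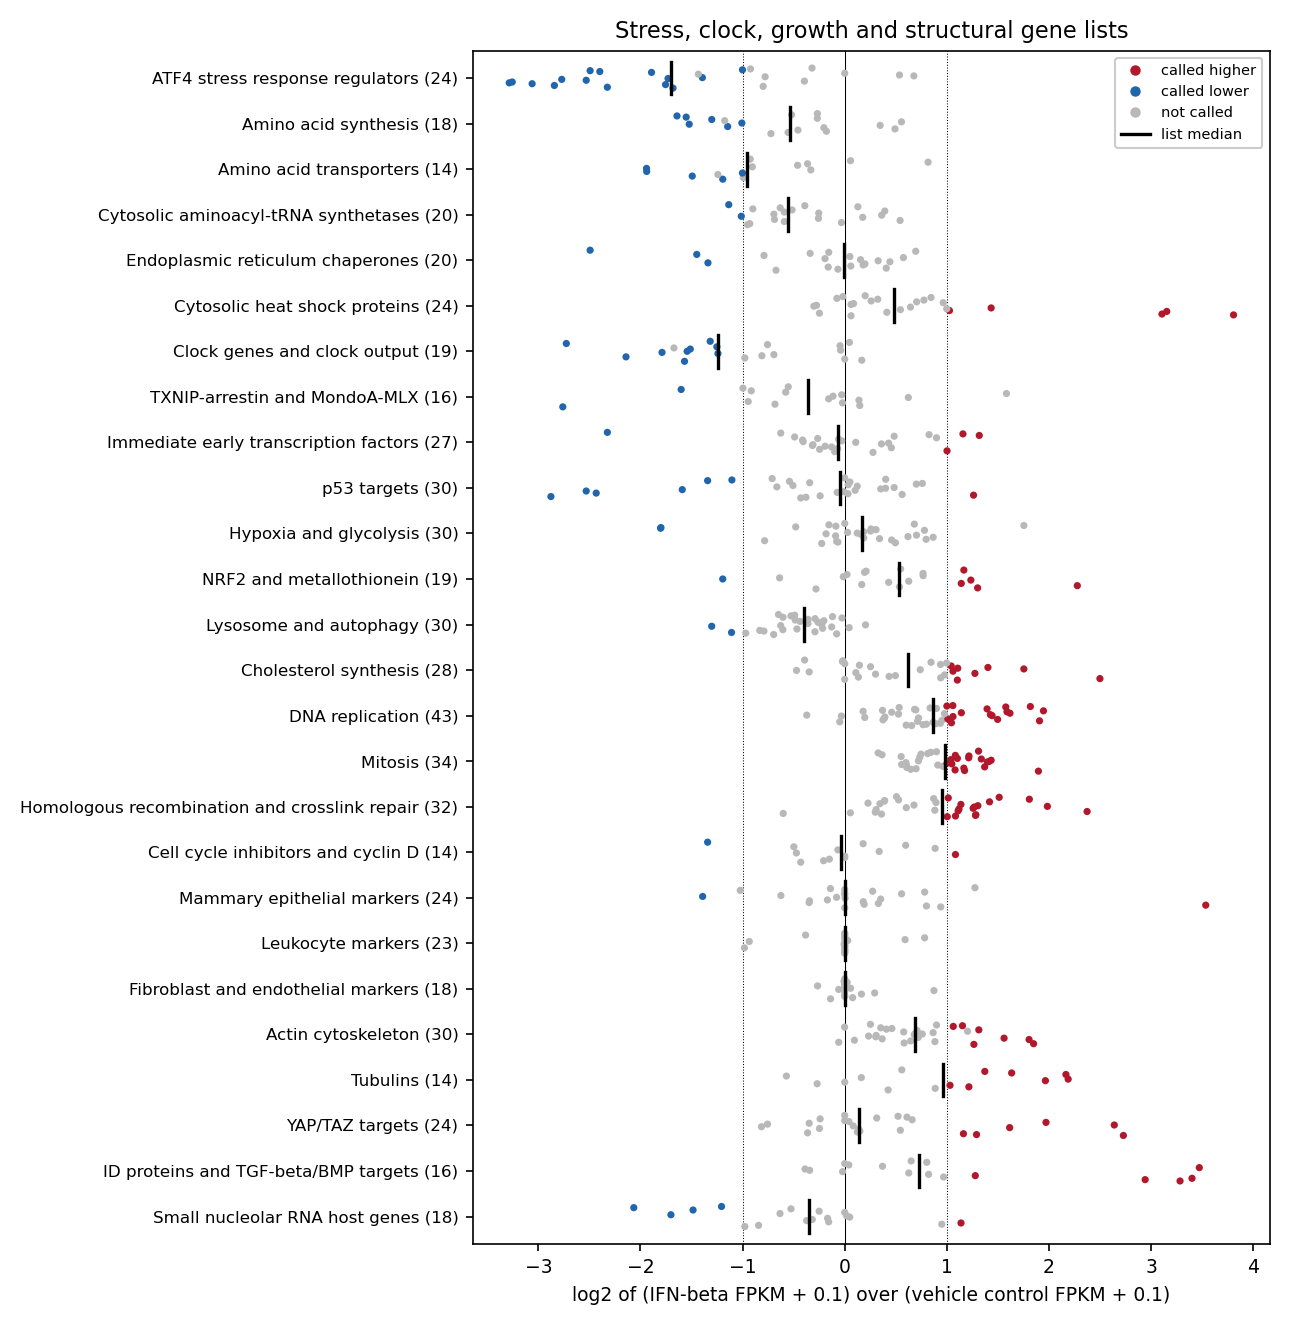
Log2 ratio of mean FPKM + 0.1, IFNβ over vehicle control, for the members of 26 stress, clock, growth, marker and structural gene lists, drawn as in the plot of interferon lists. The ATF4 stress response list has a median of -1.71 and clock genes of -1.24, while DNA replication and mitosis genes have medians of 0.87 and 0.98.

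To show which letters the strongest downward genes carried, the same promoters were searched for the ATF4 element (CARE, written TGATGNAA) and for the E-box (CACGTG). Of the 15 largest downward differences among genes that reached 5 FPKM, 6 held a match. The other 9 held none, among them Ppp1r15a, Trib3, Gadd45a and Ddit3. The windows of the 3 largest downward differences with a match are given, with matches in capitals.
Chac1, chr2:119351019-119351086, plus strand: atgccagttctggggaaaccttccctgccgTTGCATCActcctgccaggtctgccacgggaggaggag
Nupr1, chr7:126625543-126625610, minus strand: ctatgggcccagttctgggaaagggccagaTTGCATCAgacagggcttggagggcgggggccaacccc
Ciart, chr3:95882237-95882302, minus strand: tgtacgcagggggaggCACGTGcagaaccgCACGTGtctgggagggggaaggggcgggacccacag

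CARE was held by 5 of the 24 promoters of genes over 4-fold lower (20.8%), by 5.35% of all genes called lower and by 2.21% of all genes over 1 FPKM. The E-box was held by 5 of the same 24 promoters, by 12.8% of all genes called lower and by 10.6% of all genes over 1 FPKM. In all 8 motifs were searched. The CCAAT box (CCAAT), a common promoter element, was the most frequent, in 17 of the 24 promoters (70.8%, exact 95% interval 48.9 to 87.4%), in 49.4% of all genes called lower and in 40.8% of all genes over 1 FPKM. The other 5 motifs, the ISRE core, GAS, the heat shock element core GAANNTTC, the CRE TGACGTCA and the NF-kB core GGGNNTTCC, were each in 1 to 3 of the 24. These are small numbers, and the exact 95% interval of 5 in 24 was 7.13 to 42.2%.

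The ISRE core was held by 15.9% of the promoters of genes called higher (90 of 565, exact 95% interval 13.0 to 19.2%), against 5.76% for genes called lower (14 of 243), 6.63% for expressed genes not called (478 of 7215) and 8.18% of all RefSeq promoters. The share grew with the fold. It was 8.51% among genes 2- to 4-fold higher, 40.8% over 4-fold (53 of 130) and 34 of 68 over 8-fold. Of the 53 holding promoters over 4-fold, 36 had their nearest match within 100 bases of the start, with a median distance of 64 bases, against 140 of 478 and 147 bases among genes not called. The ISRE core shares letters with the GAS motif TTCNNNGAA that STAT dimers bind, and GAS was held by 9.38% of the genes called higher and 6.93% of all genes over 1 FPKM. The core did not follow the calls list by list. It was in 7 of 7 promoters of the guanylate binding protein list (Gm12250 included), 6 of 9 of the p200 family and 6 of 11 of the OAS group. It was in 2 of 6 ISG15 conjugation genes and 0 of 8 immunoproteasome genes, of which most or several were called higher, and in 11 of 20 interferon ligand genes, of which none was over 1 FPKM. A match is a run of letters and not evidence of binding.

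**Figure D5:**
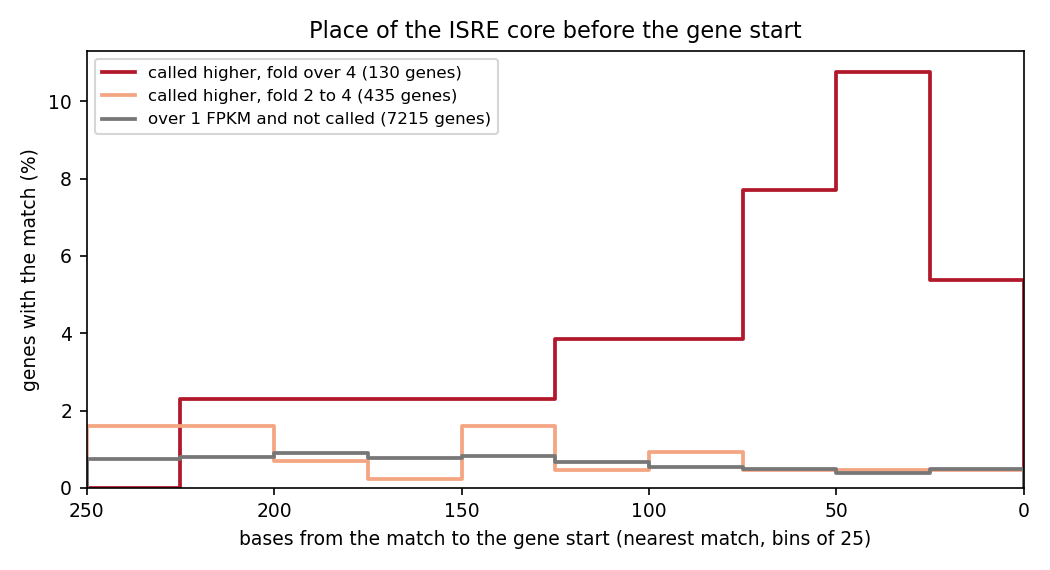
Percent of genes whose nearest ISRE core lies at a given distance before the gene start, in bins of 25 bases, for genes over 4-fold higher with IFNβ (red), 2- to 4-fold higher (orange) and not called (grey). The red line is highest in the 100 bases next to the start, and the orange and grey lines lie close together throughout.

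Part of the genes called higher lay side by side. In 12 runs of at least 4 called genes within 100 kb of each other lay 63 of the 712 genes called higher outside small RNA loci. Runs were drawn from called genes only and start and end at a called gene, which favours full runs. In 3 runs every row between these ends was called higher. Rows beyond the ends are not counted, such as AI607873 (chr1:175653558-175671940, not called) just before the p200 run. The p200 run on chr1:175677424-175961886 (mm9) held 6 of 6 rows, with a median log2 ratio of 2.55, and the guanylate binding protein genes filled a pair of runs, chr3:142159897-142300972 with 5 of 5 rows and chr5:105507412-105722718 with 4 of 4 rows. The run with the highest median (5.54) was that of the IFIT genes on chr19:34566805-34724499, with 6 of 7 rows, among them the lysosomal lipase gene Lipa at its edge (3.54 FPKM with IFNβ, 1.498 in control). The immunity-related GTPases on chr11:48678750-48910489 held 7 of 10 rows, the Oas genes on chr5:121180341-121357534 6 of 9 and the H2-T genes on chr17:36142639-36258389 6 of 10. Not all runs were of a single gene family. Fosl1, Fibp, Ovol1, Ap5b1, Rnaseh2c and Sipa1 on chr19:5447697-5663707 were 6 of 15 rows, with a median of 1.51. Chtf18, Rpusd1, Haghl and Rhot2 on chr17:25855974-25981796 were 4 of 17 rows, with a median of 1.36. In the MHC and Trim runs, as in the other families of close copies, single rows can share reads with their neighbours.

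Genes of proliferation were higher with IFNβ by modest folds. Of 43 DNA replication genes 16 were called higher and none lower (median log2 ratio 0.87), of 34 mitosis genes 17 and none (0.98), and of 32 genes of homologous recombination and crosslink repair 16 and none (0.95). Mki67, the proliferation marker, had 15.3 FPKM with IFNβ and 4.03 FPKM in control (3.72-fold). Rrm2, a subunit of ribonucleotide reductase, had 37.8 and 9.73 FPKM (3.85-fold), and Rad54l, which drives strand exchange in recombination, 4.62 and 0.811 FPKM (5.18-fold). Highly expressed members differed less, such as the clamp gene Pcna with 177 FPKM with IFNβ and 135 FPKM in control. Since plating density and medium change differed between the groups, and time in culture may have, the part of growth state in these genes was not tested. Cholesterol synthesis had 8 of 28 called higher, among them the sterol reductase gene Hsd17b7 (4.64 FPKM with IFNβ, 1.304 in control, 3.37-fold), and 5 of 19 NRF2 and metallothionein genes were called higher, led by the quinone reductase gene Nqo1 (5.12 and 0.977 FPKM, 4.85-fold), and 1 lower, the cystine transporter gene Slc7a11 (1.73 FPKM with IFNβ, 4.096 in control, 2.29-fold lower).

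The highest level among called genes belonged to Hspa8, the constitutive HSP70 chaperone, with 2712 FPKM with IFNβ and 315 FPKM in control (8.61-fold, chr9:40609355-40613282 in mm9). Of 24 cytosolic heat shock genes 5 were called higher and none lower. The inducible Hspa1b had 55.9 FPKM with IFNβ and 3.90 FPKM in control (14.0-fold) and the small heat shock gene Hspb1 3.65 and 0.321 FPKM (8.90-fold). Of the HSP90 genes Hsp90ab1 had 924 FPKM with IFNβ and 462 FPKM in control and Hsp90aa1 612 and 419 FPKM.

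Some genes of the actin, tubulin, YAP and TAZ target and ID protein lists were also higher. These lists were made after the values had been seen. Of 30 actin cytoskeleton genes 7 were called higher, with Actg1 at 1191 FPKM with IFNβ and 330.4 FPKM in control (3.60-fold) and Actb at 1219.6 and 507.5 FPKM (2.40-fold). Of 14 tubulin genes 7 were called higher, among them Tubb5 (276 and 88.9 FPKM). Ctgf, Thbs1 and Cyr61, targets of YAP and TAZ, had 64.7, 124 and 141 FPKM with IFNβ and 9.68, 19.9 and 57.5 FPKM in control, in a list with 6 of 24 called higher. The ID proteins, which block differentiation factors downstream of BMP, were higher as well, with Id1 at 25.1 and 2.49 FPKM (9.73-fold) and Id3 at 65.6 and 6.12 FPKM (10.6-fold). Actb and Actg1 are often used as reference genes, and Gapdh lay within 2-fold here. Among keratins Krt14, of basal epithelium, had 19.7 FPKM with IFNβ and 1.61 FPKM in control (11.6-fold).

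The host genes of small nucleolar RNAs, also listed after the values had been seen, had 4 of 18 rows called lower and 1 higher. The row 2410006H16Rik had 137 FPKM with IFNβ and 574 FPKM in control (4.19-fold lower), and Snhg12 24.9 and 81.2 FPKM (3.25-fold lower). Gas5, another host, had 42.8 and 84.4 FPKM and was not called.

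The 4HC groups shared the control libraries, so their values are given only side by side. For Ifit1 the means were 105 FPKM with IFNβ, 9.11 with 4HC, 2.16 with 4HC and antibody and 0.512 in control, and for Irf7 61.4, 17.5, 1.20 and 0.560 FPKM in the same order. For Chac1 the means were 2.203, 17.6, 15.6 and 22.3 FPKM, and for Hspa8 2712, 729.6, 789 and 315 FPKM. Spp1 and Lcn2, a matrix protein and an iron-carrier binding protein chosen after their values were seen, had 16.4 and 5.15 FPKM with IFNβ, 418 and 355 with 4HC, 515 and 444 with 4HC and antibody, and 47.3 and 16.3 in control.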

How the data were processed

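Per the labels, poly(A)-selected, strand-specific libraries were mapped to mm9 with TopHat2, counted per gene with featureCounts and compared with edgeR. The sources used here give no tool versions and no strand setting for the counting, so genes that overlap an antisense partner are uncertain. The deposited values are FPKM that the authors averaged over the libraries of a group. The table's ratio, signed fold change and p-value columns hold the authors' own edgeR comparisons and were not used. An edgeR fit planned for counts could not be run on group means, and the description by size planned for this case replaced it.

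Ratios were taken of mean FPKM + 0.1. A gene was called at a fold over 2 with over 1 FPKM in the higher group. Depth was recovered from 1222 intronless receptor genes, of which 16 were above 0 with IFNβ and 16 in control, at 33.7 to 49.3 M reads in the libraries compared. All these depths lie above the average number of paired-end reads that the paper gives for its cell culture libraries. Reads of low genes were recovered where 1 read, the depth and a whole gene length gave the FPKM within 0.0003 bases, and their intervals (95%, Clopper-Pearson) cover counting error only. Recovered lengths of 0.75 to 1.33 times the annotated exonic length were accepted, for Mx1 2975 against 3387 bases. The steps were run on simulated data whose gene lengths equalled the annotated ones, so such departures in length were not tested. Gene names matched RefSeq symbols in 23251 rows and synonyms in 811, and 27 rows carrying dates for names entered no list.

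The 43 gene lists and their 953 members were chosen with earlier results of these data known. Genes named are the 15 largest differences each way that reached 5 FPKM, up to 6 called and 3 uncalled members per list, the receptor and JAK-STAT-IRF core, 11 preset genes and genes in runs. Others, and 5 further lists, were chosen after their values were seen. A few genes that this rule takes in are not reported here. Promoters are RefSeq's. Python 3.11.15, pandas 2.3.3, numpy 2.4.6, scipy 1.17.1 and matplotlib 3.10.9 were used. Alternatives were other pseudocounts, FPKM limits, folds, a centring of the ratios, a shorter promoter window and leaving out small RNA loci.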

Additional observations from a re-analysis of the deposited data

How the results depend on the processing

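No paired analysis was possible because the table holds group means, and for the same reason no library could be left out and no replicate spread enters any statement. The number of genes called higher with IFNβ, 771, came to 446 with a pseudocount of 1 FPKM, 438 with a limit of 5 FPKM, 1786 at a fold of 1.5 and 189 at a fold of 4. It stayed within 1.5 times (712 to 1015) with a pseudocount of 0.01, a limit of 0.5 FPKM, no limit, ratios centred on their median and small RNA loci left out. The number called lower, 377, came to 196, 200, 1172 and 37 under those 4 settings in the same order and to 568 with no limit, and lay between 319 and 448 under the rest. The share of promoters with the ISRE core among genes called higher, 15.9%, was 8.14% in the 100 bases next to the start and 40.8% at a fold of 4. For CARE among genes called lower the 5.35% became 0.823% and 20.8%. Of 178 named genes that were called, 20 were no longer called with a pseudocount of 1 FPKM, 31 with a limit of 5 FPKM, 1 with centred ratios and 78 at a fold of 4. These settings cannot change the direction of a called gene, so direction was not tested by them. Of 170 list medians recomputed, 20 moved. Sign changes were counted only for medians not close to 0, and none was found among those. Medians close to 0 could change sign. That of cell cycle inhibitors and cyclin D was -0.03 over all members and 0.06 over members above 1 FPKM. Leaving out members at or under 1 FPKM took the OAS group to 4.49 (2.98 over all members) and MHC class II to -0.72, and a pseudocount of 1 FPKM took the clock genes to -0.70, the guanylate binding proteins to 2.61 and the immunity-related GTPases to 2.95. Genes with under 10 control reads have folds known only to the width of their counting intervals.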

Other observations

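Several genes outside the lists, chosen after their values were seen, had large upward differences. Phf11d had 13.7 FPKM with IFNβ and 0.438 FPKM in control, Samd9l, a translation inhibitor that restricts viruses, 25.7 and 1.01 FPKM, and Hsh2d, an adaptor of lymphocyte signalling, 5.29 and 0.285 FPKM. Trafd1, a negative regulator of Toll-like receptor signalling, had 39.7 and 4.36 FPKM, and Znfx1, a helicase that senses viral RNA, 16.2 and 1.90 FPKM. In all 198 of the 771 genes called higher and 57 of the 377 called lower were members of the 43 lists.

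Small RNA loci made up 59 of the genes called higher and 58 of those called lower. Of 1177 microRNA rows 266 were over 1 FPKM, of which 53 were called higher and 46 lower, with a median log2 ratio of 0.01. Poly(A) selection does not retain mature microRNAs, and short rows give a high FPKM from few reads. Ribosomal protein genes, with 76 of 80 rows over 1 FPKM, had none called higher and 1 called lower, at a median log2 ratio of -0.25 over all 80.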
